A study of Mus musculus with 2 samples.

Results

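The 10 genes described here encode autosomal proteins that silence the X chromosome or keep it silent: Spen, Hnrnpu, Rbm15, Ciz1, Hdac3, Ezh1, Ezh2, Dnmt1, Dnmt3a and Smchd1. They were chosen by name, though with earlier results of these data known. All 10 were listed in both heart libraries, among 21471 genes listed in both and 25235 listed in either. The study asked whether genes of the inactive X become active again with age, and profiled single nuclei from 1 adult heart, 9 weeks old, and 1 aged heart, 78 weeks old. Both hearts came from female F1 hybrids of a C57BL/6J (BL6) mother and a CAST/EiJ (CAST) father. The deposited values are allele-resolved reads per gene, pooled over all cell types of a heart and over only those nuclei in which the BL6 X was active and the CAST X inactive. Nuclei with the opposite choice of X were not analysed here. The genotype label of both animals is C57BL/6JxCAST/EiJ, while the breed label names a mother from the Xist deletion line (∆Xist-/+), and the study's methods describe the hearts as wild type. The deposited name of the aged table gives a different week number from the age label, and the label is used throughout. With 1 heart per age no spread between animals was available, so no test between ages could be made, and age cannot be told apart from the individual heart or its library.

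In a female mouse cell 1 of the 2 X chromosomes is coated by the noncoding RNA Xist and silenced. Xist works through proteins: SPEN binds the RNA and activates the deacetylase HDAC3 through its corepressors, HNRNPU and CIZ1 hold the RNA on the chromosome and nuclear matrix, and RBM15 brings the complex that methylates adenosines of RNA. The silent state is then kept by Polycomb histone methylation, written by EZH2 or EZH1, by DNA methylation of promoters, which DNMT1 copies at replication and DNMT3A writes anew, and by the chromosome-folding protein SMCHD1. In these terms the adult heart is a tissue of mostly non-dividing cells, where EZH1 rather than EZH2 is the enzyme usually associated with quiescence.

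The adult library held 9747535 allelic reads, meaning reads over a base that differs between BL6 and CAST, and the aged library 5805807. Levels are given as RPM, a gene's allelic reads per 1000000 allelic reads of that library, with exact Poisson intervals. Ratios between ages are aged over adult RPM, with exact conditional binomial intervals. All intervals are at 95% and cover counting error only, with each read taken as independent. Reads may include copies of 1 molecule, and the intervals would then be too narrow. Of the 10 genes, 9 had at least 20 reads in each library, as did 12736 genes in all, and those are the genes tested against the thresholds below. The median ratio of the 12736 genes was 1.17, a shift of 0.22 on the log2 scale, so each ratio is read against that median as well as against 1. Shorter loci had higher ratios: the median was 1.38 for loci under 10 kb, 1.19 from 10 to 30 kb, 1.12 from 30 to 100 kb and 1.00 from 100 kb up.

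The levels of cell type markers also differed between the pools. In such pools fewer nuclei of a type and less RNA per nucleus cannot be told apart. The study did count nuclei by type, over all nuclei rather than only those pooled here. It reported a smaller share of cardiomyocytes and a larger share of fibroblasts in the aged heart. The part of those shares in the ratios below was not tested. Summed over all listed markers, 10 cardiomyocyte markers went from 30249 RPM in the adult library to 27917 RPM in the aged one. That sum is led by the titin gene Ttn, at 11849 and 6872 RPM, and the other 9 summed to 18400 and 21046 RPM. Of the 10, the interval of the ratio lay above 1 for 8 and below 1 for Ttn alone, and their median ratio was 1.15. The summed levels went from 848 to 1435 RPM for 10 fibroblast markers and from 1025 to 1508 RPM for 10 endothelial markers. Those of 9 pericyte and smooth muscle markers went from 215 to 508 RPM, and those of 9 macrophage markers from 302 to 503 RPM. For these lists in turn the median ratio of the tested markers was 1.78, 1.23, 2.19 and 1.67, against 1.17 for all tested genes. Tested markers above that all-gene median numbered 7 of 9, 6 of 10, 7 of 8 and 6 of 6. The 10 lymphocyte markers had 54.9 and 42.4 RPM. Cd3e, Cd3g and Cd8a were at 0 in the aged library, against only 9, 5 and 9 reads in the adult one. The 10 cell cycle markers had 18.2 and 19.98 RPM, with Ccnb1 at 0 in the adult library. Xist itself was at 1709 RPM at 9 weeks and 1794 RPM at 78 weeks, a ratio of 1.0502 (1.02 to 1.08), below the median of all genes. CAST reads made up 95.8% of Xist reads at 9 weeks and 96.9% at 78 weeks, as the choice of nuclei with an inactive CAST X sets.

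Of the 9 tested factors, 3 differed between ages by 1.5-fold or more, with Spen and Dnmt3a higher and Ezh2 lower in the aged library. Across all tested genes 39.8% passed that fold either way, 28.0% higher and 11.8% lower, so 3 of 9 is near the background. After every ratio was divided by the median ratio, 0 factors were higher and 1, Ezh2, lower by that fold, against 36.3% of all tested genes either way, 18.0% higher and 18.4% lower. The interval of the ratio left out 1 for all 9, with 6 higher and 3 lower. Of all tested genes 63.0% did so, 42.3% higher and 20.7% lower. Such intervals narrow with depth, and the tested genes had medians of 204 reads at 9 weeks and 138 at 78 weeks. All 9 factors had more reads than these medians, except Dnmt1 at 9 weeks, so the comparison is not matched for depth. Relative to the median gene, 5 factors were higher and 4 lower, and the interval lay wholly above the median for Dnmt3a, Spen and Hnrnpu and wholly below it for Ezh2, Rbm15, Ezh1 and Smchd1. The median ratio of the 9 was 1.24, or 1.06 relative to the median of all genes. Single ratios ran from 0.637 for Ezh2 to 1.55 for Spen.

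**Figure D1:**
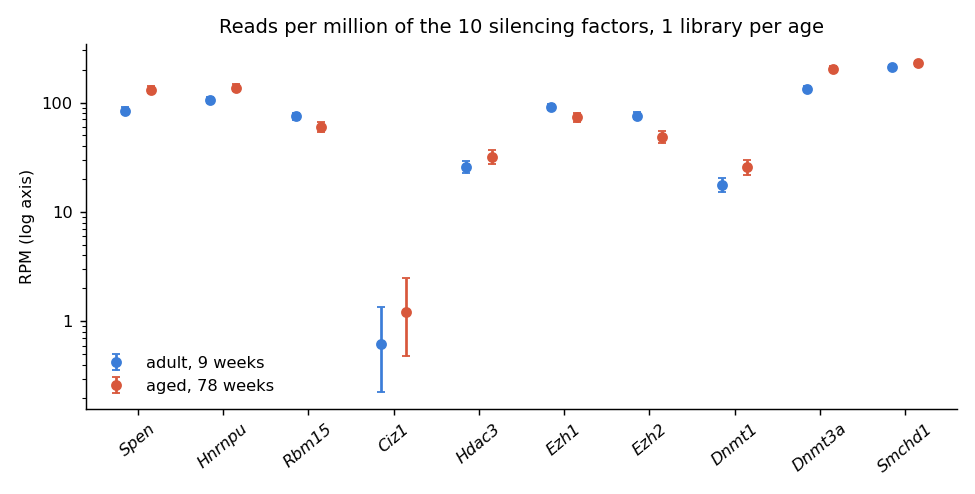
RPM of the 10 factors (log axis) in the adult (blue) and aged (red) heart libraries, 1 point per library, with bars for exact 95% Poisson intervals. Smchd1 was the most read factor at both ages and Ciz1, at 0.616 and 1.21 RPM, lay far below the other 9.

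**Figure D2:**
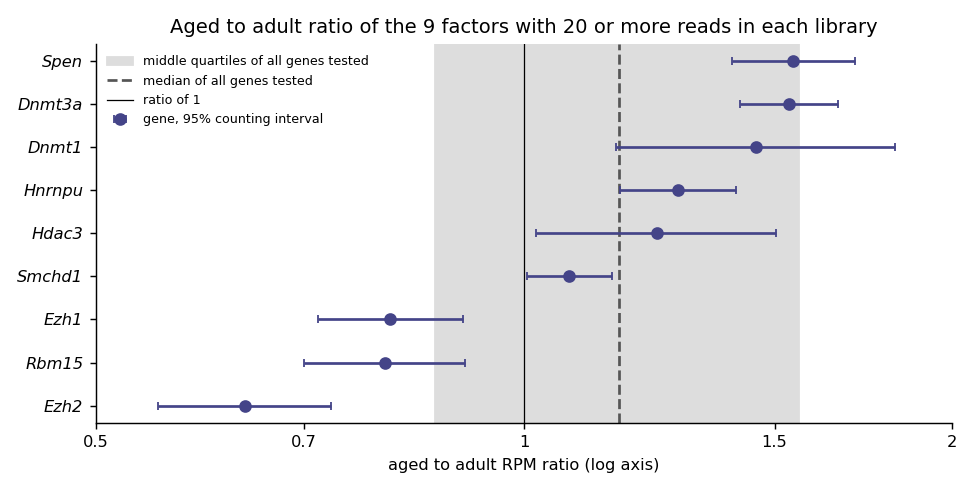
Aged to adult RPM ratio (log axis) of the 9 factors with 20 or more reads in each library, with bars for 95% counting intervals. The dashed line is the median of all 12736 tested genes, 1.17, and the grey band spans their middle quartiles, 0.865 to 1.56. Only Ezh2, Rbm15 and Ezh1 lay below the band, and no factor lay above it.

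Levels were compared between genes per kb of locus, because reads were counted over whole gene bodies. The number of informative bases per locus is unknown here. How far reads of single-nucleus 3′ libraries grow with locus length was not tested. The order below depends on that division, which the intervals do not cover. Hnrnpu was the highest at both ages, with 6.36 RPM per kb at 9 weeks and 8.17 at 78 weeks. Ezh1 (2.57 and 2.07 RPM per kb) and Rbm15 (2.56 and 2.04) followed, and their intervals overlapped at both ages. The Rbm15 values use its listed locus of 29.5 kb, longer than the GENCODE gene of 8.25 kb. In the adult library Smchd1 (1.63), Hdac3 (1.43), Dnmt3a (1.22), Spen (1.19) and Ezh2 (1.17 RPM per kb) came next, each overlapping its neighbour in that order. In the aged library Dnmt3a (1.87), Spen (1.85), Hdac3 (1.78) and Smchd1 (1.75 RPM per kb) formed such a run directly after Rbm15. The aged interval of Rbm15 also overlapped that of Dnmt3a, while Ezh2 (0.744) stood clear below the run. Dnmt1 (0.335 and 0.487) and Ciz1 (0.0402 and 0.0788 RPM per kb) were the lowest at both ages, each without overlap with the gene above it.

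Spen encodes the RNA-binding protein that Xist needs first to begin silencing. Its locus (GRCm38 chr4:141467885-141538637, minus strand) gave 438 reads from BL6 and 386 from CAST at 9 weeks, and 396 and 363 at 78 weeks. Its level was 84.5 RPM (78.9 to 90.5) and 131 RPM (122 to 140), a ratio of 1.55 (1.40 to 1.71) and 1.33 relative to the median gene. Relative to loci of its length class the ratio was 1.38, under the 1.5-fold threshold. Both alleles were higher in the aged library, BL6 1.52-fold and CAST 1.58-fold. Its allelic ratio, the BL6 share of allelic reads, was 0.532 and 0.522, within counting error of each other and close to the autosomal medians of 0.534 and 0.537. Spen thus had the largest ratio of the tested factors and the smallest change in allelic ratio, but neither stood clear of the next factor. Dnmt3a had a ratio of 1.54 (1.42 to 1.66), and Smchd1 an allelic change of -0.0100 (-0.0442 to 0.0243). A stretch of 1910 bases of its locus, 2.70%, also lies in Gm4123, which had 8 and 6 reads, and 53 bases lie in Zbtb17.

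Hdac3 encodes the histone deacetylase that SPEN activates through the NCOR corepressors. It lies on chromosome 18 (37936971 to 37954988, minus strand) and gave 131 reads from BL6 and 121 from CAST at 9 weeks, and 118 and 68 at 78 weeks. The level was 25.9 RPM (22.8 to 29.2) and 32.0 RPM (27.6 to 37.0), a ratio of 1.24 (1.02 to 1.504). Relative to the median gene the ratio was 1.06 (0.875 to 1.29), an interval that holds 1. The BL6 level was higher in the aged library, 13.4 and 20.3 RPM (ratio 1.51, 1.17 to 1.95), and the CAST level was 12.4 and 11.7 RPM (ratio 0.944, 0.690 to 1.28). The allelic ratio was 0.520 (0.456 to 0.583) at 9 weeks and 0.634 (0.561 to 0.704) at 78 weeks.

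Hnrnpu, also called SAF-A, encodes the scaffold protein that tethers Xist to chromatin. Its locus (chr1:178321108-178337810, minus strand) is 16.7 kb long, of which 69.4% is exon in some annotated transcript, the most exonic of the 10. Hnrnpu stood at 106 RPM (99.9 to 113) at 9 weeks and 136 RPM (127 to 146) at 78 weeks, a ratio of 1.28 (1.17 to 1.41) that is 1.10 relative to the median gene and 1.07 relative to loci of its length class. Reads from the CAST allele were in excess at both ages, with 405 reads from BL6 against 631 from CAST at 9 weeks and 272 against 520 at 78 weeks. The allelic ratio was 0.391 (0.361 to 0.421) and 0.343 (0.310 to 0.378), below the autosomal median by more than 0.1 at both ages. Cox20 shares 1586 bases with the locus, 9.50% of it, and had allelic ratios of 0.50 and 0.517, so the CAST excess was not seen in the overlapping gene.

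Rbm15 encodes the adaptor that links Xist to the RNA methylation complex. Its listed locus (chr3:107305511-107334967, minus strand) spans 29.5 kb, whereas the GENCODE gene spans 8.25 kb, and 22.4% of the locus also lies in Slc16a4, which had 112 and 66 reads. Reads from BL6 numbered 399 at 9 weeks and 154 at 78 weeks, and those from CAST 335 and 195. The level was 75.3 RPM (70.0 to 81.0) and 60.1 RPM (54.0 to 66.8), a ratio of 0.798 (0.701 to 0.908), or 0.685 relative to the median gene. BL6 reads carried the difference: the BL6 level went from 40.9 to 26.5 RPM (ratio 0.648, 0.535 to 0.782), while the CAST level was 34.4 and 33.6 RPM (ratio 0.977, 0.815 to 1.17). The allelic ratio accordingly went from 0.544 to 0.441.

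Ciz1, whose protein anchors Xist to the nuclear matrix, was barely read. Its listed locus (chr2:32363005-32378313, plus strand) gave 5 reads from BL6 and 1 from CAST at 9 weeks, and 2 and 5 at 78 weeks. The levels, 0.616 RPM (0.226 to 1.34) and 1.21 RPM (0.485 to 2.48), overlapped in their intervals. The listed locus covers 15.3 kb of a 28.6 kb GENCODE gene. A difference in level was not detectable at this depth. The allelic ratios of 0.833 (0.359 to 0.996) and 0.286 (0.0367 to 0.710) overlapped in their intervals, while the interval of their change, 0.548 (0.0149 to 0.793), left out 0. With so few reads Ciz1 entered no count of thresholds.

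Ezh2 and Ezh1 encode the alternative catalytic subunits of Polycomb repressive complex 2 (PRC2), and both were lower in the aged library. The pair is shown here by the DNA upstream of each RefSeq start (build GRCm38.p6, both genes on the minus strand, sequences from RefSeq), since EZH2 is the subunit known from dividing cells and EZH1 the one known from resting cells. The Ezh1 stretch, chr11:101226464-101226713, is 250 bases with 14 CpG sites. The Ezh2 stretch, chr6:47595059-47595183, is the longest part of the same window that lies in no annotated exon, 125 bases with 11 CpG sites. It lies inside the listed Ezh2 locus, which ends at 47595340, because the RefSeq start used is internal to that locus. The Ezh1 stretch begins just past its locus, which ends at 101226463, so the CpG counts come from unlike positions. Capitals mark CpG sites, the dinucleotides that DNA methyltransferases modify.
Ezh1 upstream: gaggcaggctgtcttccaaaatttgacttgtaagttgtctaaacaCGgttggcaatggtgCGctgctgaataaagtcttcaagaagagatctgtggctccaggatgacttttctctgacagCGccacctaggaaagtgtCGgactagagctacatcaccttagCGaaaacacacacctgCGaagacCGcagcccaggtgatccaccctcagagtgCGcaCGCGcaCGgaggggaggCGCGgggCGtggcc
Ezh2 upstream: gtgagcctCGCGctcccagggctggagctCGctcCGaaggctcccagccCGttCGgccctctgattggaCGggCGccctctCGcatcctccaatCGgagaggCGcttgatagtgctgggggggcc

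The E2F factors, which switch on genes for DNA replication, bind motifs such as TTTGGCGC, TTTCCCGC, TTTGCCGC and TTTCGCGC. These letters were searched on both strands of the RefSeq windows from 250 bases before to 50 bases after each start, which were found for 9 of the 10 genes in 14 windows. Among all 32851 windows 2.26% held at least 1 of them, and the median window had 7 CpG sites. Each motif contains a CpG, and the Ezh2 and Dnmt1 windows below had 31 and 33 CpG sites. The share is therefore not a background matched for CpG. Of the 14 windows of the factors 2 held such a motif, and they belonged to Ezh2 and Dnmt1. TTTGGCGC, present in 0.514% of all windows, began at base 4 after the Ezh2 start used, which lies inside the listed locus. It also began at base 34 after 1 of 3 Dnmt1 starts. That Dnmt1 window also held TTTCGCGC on the opposite strand, 219 bases before the start. The Ezh1 window held none. The matches describe letters only, and the levels of Ezh2 and Dnmt1 differed in opposite directions between the ages.

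Ezh2 (locus chr6:47530274-47595340, minus strand) had the lowest ratio of the tested factors. Reads from BL6 numbered 393 at 9 weeks and 191 at 78 weeks, and those from CAST 348 and 90, which amounts to 76.0 RPM (70.6 to 81.7) against 48.4 RPM (42.9 to 54.4). The ratio was 0.637 (0.553 to 0.731), or 0.546 relative to the median gene, and 10.3% of all tested genes had a lower one. Within its length class the relative ratio was 0.567. CAST reads differed most, from 35.7 to 15.5 RPM (ratio 0.434, 0.340 to 0.549), while BL6 reads went from 40.3 to 32.9 RPM (ratio 0.816, 0.683 to 0.972). The allelic ratio was 0.530 (0.494 to 0.567) at 9 weeks and 0.680 (0.622 to 0.734) at 78 weeks, an adult minus aged change of -0.149 (-0.212 to -0.0824).

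Beside Ezh2, genes of dividing cells differed in both directions and some T lymphocyte genes were lower in the aged library. Among the 10 cell cycle markers, whose summed level was 18.2 and 19.98 RPM, Mki67 had 16 and 1 reads, a ratio of 0.105 (0.0025 to 0.675), and Top2a 26 and 6. Birc5 had 2 and 10 reads, a ratio of 8.39 (1.79 to 78.8), and Mcm2 6 and 11 reads, a ratio of 3.08 (1.04 to 10.1). Cdk1 had 17 reads in each library, a ratio of 1.68 (0.806 to 3.50), and Cenpf a ratio of 1.09 (0.690 to 1.70). Among the lymphocyte markers Bcl11b had 85 and 1 reads and Skap1 172 and 30, a ratio of 0.293, whereas Ptprc, found on all leukocytes, had a ratio of 1.37. These genes were picked after their values were seen. Their part in the Ezh2 difference was not tested.

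Ezh1 (locus chr11:101191115-101226463, minus strand) gave 333 reads from BL6 and 553 from CAST at 9 weeks, and 190 and 235 at 78 weeks. The level was 90.9 RPM (85.0 to 97.1) and 73.2 RPM (66.4 to 80.5), a ratio of 0.805 (0.716 to 0.905) and 0.691 relative to the median gene. CAST reads again differed more, from 56.7 to 40.5 RPM (ratio 0.713, 0.610 to 0.833), and BL6 reads went from 34.2 to 32.7 RPM (ratio 0.958, 0.797 to 1.15). Ezh1 was on the CAST side of the autosomal median at both ages, with allelic ratios of 0.376 (0.344 to 0.409) and 0.447 (0.399 to 0.496). Per kb of locus Ezh1 exceeded Ezh2 2.20-fold (1.99 to 2.43) at 9 weeks and 2.78-fold (2.39 to 3.25) at 78 weeks. These folds rest on division by locus length, 35.3 kb for Ezh1 and 65.1 kb for Ezh2, which the intervals do not cover. Undivided, Ezh1 and Ezh2 stood at 90.9 and 76.0 RPM at 9 weeks, and at 73.2 and 48.4 RPM at 78 weeks. The balance was 1.26-fold (1.053 to 1.52) further toward Ezh1 at 78 weeks, a change that does not depend on locus length.

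**Figure D3:**
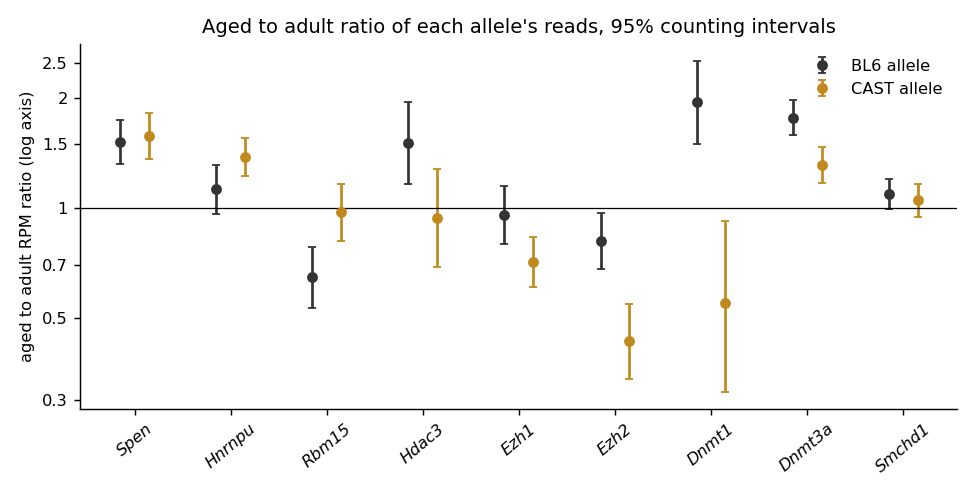
Aged to adult RPM ratio (log axis) computed from the BL6 reads (black) and the CAST reads (ochre) of the 9 tested factors, with 95% counting intervals and a line at a ratio of 1. The alleles of Spen and Smchd1 lay together, those of Dnmt1 lay on opposite sides of 1 (1.95 and 0.550), and the CAST points of Ezh2 and Ezh1 lay below their BL6 points.

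Dnmt1, the maintenance DNA methyltransferase, showed the largest allelic shift of the tested factors. Its locus (chr9:20907206-20959888, minus strand) gave 111 reads from BL6 and 61 from CAST at 9 weeks, and 129 and 20 at 78 weeks. The level was 17.6 RPM (15.1 to 20.5) and 25.7 RPM (21.7 to 30.1), a ratio of 1.45 (1.16 to 1.82). Relative to the median gene that is 1.248 (0.996 to 1.56), an interval that just holds 1. The alleles went in opposite directions, BL6 from 11.4 to 22.2 RPM (ratio 1.95, 1.502 to 2.54) and CAST from 6.26 to 3.44 RPM (ratio 0.550, 0.315 to 0.925). The allelic ratio was 0.645 (0.569 to 0.717) and 0.866 (0.800 to 0.916), a change of -0.220 (-0.307 to -0.127), and 94.7% of tested autosomal genes changed less in either direction. No other listed locus overlaps Dnmt1, and this shift rests on 20 aged CAST reads.

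Dnmt3a, the de novo methyltransferase expressed in adult cardiomyocytes and blood cells, was higher in the aged library on both alleles. Its locus (chr12:3804986-3914443, plus strand) gave 627 reads from BL6 and 673 from CAST at 9 weeks, and 662 and 527 at 78 weeks. The level was 133 RPM (126 to 141) and 205 RPM (193 to 217), a ratio of 1.54 (1.42 to 1.66) and 1.32 relative to the median gene. Long loci as a class had a median ratio of 1.00, so within its length class Dnmt3a stayed at 1.54, the highest of the 9. BL6 reads had a ratio of 1.77 (1.59 to 1.98) and CAST reads 1.31 (1.17 to 1.48), and the allelic ratio was 0.482 (0.455 to 0.510) and 0.557 (0.528 to 0.585). Gm31623, with 87 and 70 reads, covers 13.9% of the locus, and the antisense Dnmt3aos, with 21 and 17 reads, covers 2.70%. Per kb of locus Dnmt3a exceeded Dnmt1 3.64-fold (3.10 to 4.29) at 9 weeks and 3.84-fold (3.24 to 4.59) at 78 weeks. These folds too rest on locus length, 109 kb for Dnmt3a and 52.7 kb for Dnmt1. The Dnmt1 to Dnmt3a balance was 0.947 (0.745 to 1.20) of its adult value, an interval that holds 1.

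Smchd1 encodes the structural maintenance protein that folds the inactive X and keeps many of its genes silent. It was the most read of the 10, with 1118 reads from BL6 and 960 from CAST at 9 weeks, and 730 and 602 at 78 weeks, over a locus of 131 kb (chr17:71344489-71475343, minus strand) that no other listed locus overlaps. The level was 213 RPM (204 to 223) and 229 RPM (217 to 242), a ratio of 1.08 (1.00 to 1.15). Relative to the median gene the ratio was 0.924 (0.862 to 0.990), and relative to loci of its length class it was 1.08, so the direction depended on the reference. Both alleles had nearly the same ratio, 1.10 for BL6 and 1.053 for CAST, and the allelic ratio was 0.538 (0.516 to 0.560) and 0.548 (0.521 to 0.575). The change of -0.0100 had an interval of -0.0442 to 0.0243.

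Across the 9 tested factors the allelic ratio changed by 0.1 or more between ages for 4. Dnmt1, Ezh2 and Hdac3 moved toward BL6 and Rbm15 toward CAST. Of all tested autosomal genes 28.0% changed by that much, 14.2% toward BL6 and 13.8% toward CAST, and the share fell with depth. Where the library with fewer reads had 20 to 100 reads, a range that held no factor, 45.7% passed. From 100 to 300 reads, 21.9% of genes passed, against 3 of 3 factors in that range (Dnmt1, Hdac3 and Ezh2). From 300 to 1000 reads 10.2% passed, against 1 of 4 (Rbm15, and not Ezh1, Spen or Hnrnpu), and at 1000 reads or more 3.32% passed, against neither Smchd1 nor Dnmt3a. The BL6 and CAST levels lay on opposite sides of their adult values for 2 of the 9, Dnmt1 and Hdac3, against 24.6% of tested autosomal genes. The median absolute change was 0.0745 for the factors and 0.0572 for all tested autosomal genes. Allelic ratios 0.1 or more from the autosomal median on the same side at both ages were found for 2 factors, Hnrnpu toward CAST and Dnmt1 toward BL6, against a share of 17.6% of tested autosomal genes. Ezh1 missed this with differences of -0.158 and -0.0898.

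**Figure D4:**
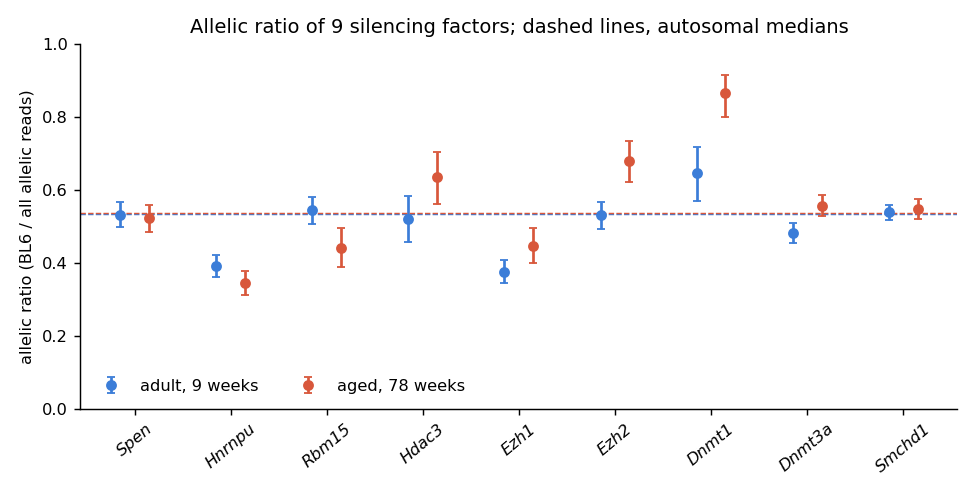
Allelic ratio, the BL6 share of allelic reads, of the 9 tested factors in the adult (blue) and aged (red) library, with exact 95% binomial intervals and dashed lines at the autosomal medians of 0.534 and 0.537. Dnmt1 lay above the medians at both ages and farthest from them in the aged library (0.866), while Hnrnpu and Ezh1 lay below them at both ages.

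The partners of these factors were examined as lists of further genes, counted against the same background of 28.0% higher and 11.8% lower. Of the other PRC2 subunits 7 of 9 listed genes were tested and none reached 1.5-fold. Their median ratio was 1.17, from Rbbp4 at 0.908 (0.780 to 1.054) to Aebp2, a DNA-binding accessory subunit, at 1.40 (1.22 to 1.60). The core subunits Suz12 and Eed had ratios of 1.31 (1.21 to 1.43) and 1.17 (1.02 to 1.35), both above those of the catalytic subunits Ezh1 and Ezh2. Of 18 listed subunits of Polycomb repressive complex 1, 13 were tested, of which 1 was higher and 1 lower, with a median of 1.08. These were Rybp, a subunit of variant complexes, at 1.56 (1.36 to 1.79), and Pcgf5 at 0.601 (0.566 to 0.639). PCGF5 and its paralog PCGF3 define the variant complexes recruited by Xist, and Pcgf3 had a ratio of 1.13 (0.946 to 1.35). Phc1, a further subunit, was left out by the minimum with 113 and 19 reads, a ratio of 0.282 (0.164 to 0.462).

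All 13 partners of SPEN and HDAC3 in the corepressor and NuRD complexes were tested, with 4 higher and 0 lower by 1.5-fold and a median of 1.23. They ran from Tbl1xr1 at 0.893 (0.846 to 0.943) to Mta1 at 2.45 (1.96 to 3.07) among genes with 100 or more reads. The sister deacetylases Hdac1 and Hdac2 had ratios of 1.34 (1.10 to 1.63) and 1.049 (0.904 to 1.22), on either side of Hdac3. Rbbp4 and Rbbp7 belong to this list as well as to that of PRC2. Of the partners of RBM15 in RNA adenosine methylation 7 of 8 were tested and 1, Mettl3, the catalytic subunit, was higher at 2.15 (1.62 to 2.85), on 93 and 119 reads. The median was 1.02, from Mettl14 at 0.941 (0.767 to 1.15) to Cbll1 at 1.40 (1.07 to 1.83) among genes with 100 or more reads, and the Rbm15 paralog Rbm15b had 1 and 3 reads.

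Of 13 other DNA methylation genes 10 were tested, with 1 higher and 0 lower and a median of 1.16. Tet3, which oxidizes methylated cytosine, had the highest ratio, 1.61 (1.49 to 1.74), and Uhrf2 the lowest, 0.831 (0.736 to 0.938). Uhrf1, the partner that brings DNMT1 to newly copied DNA, had 7 reads in each library, and Dnmt3b had 74 and 47 reads, a ratio of 1.07 (0.724 to 1.56). Of 14 other Xist-binding and nuclear matrix proteins all were tested, with 4 higher and 0 lower and a median of 1.34. Among those with 100 or more reads they ran from Hnrnpul1 at 1.00 (0.810 to 1.24) to the scaffold attachment factor Safb2 at 1.89 (1.56 to 2.28). Of 19 other genes of inactive X heterochromatin 18 were tested, with 4 higher, 2 lower and a median of 1.08. Atf7ip, the partner of the methyltransferase SETDB1, was lowest at 0.644 (0.603 to 0.687) among those with 100 or more reads, and Cbx3, which encodes an HP1 protein, highest at 1.87 (1.56 to 2.24) in the same range. Lrif1, whose protein binds SMCHD1, had 62 and 24 reads, a ratio of 0.650 (0.388 to 1.06).

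**Figure D5:**
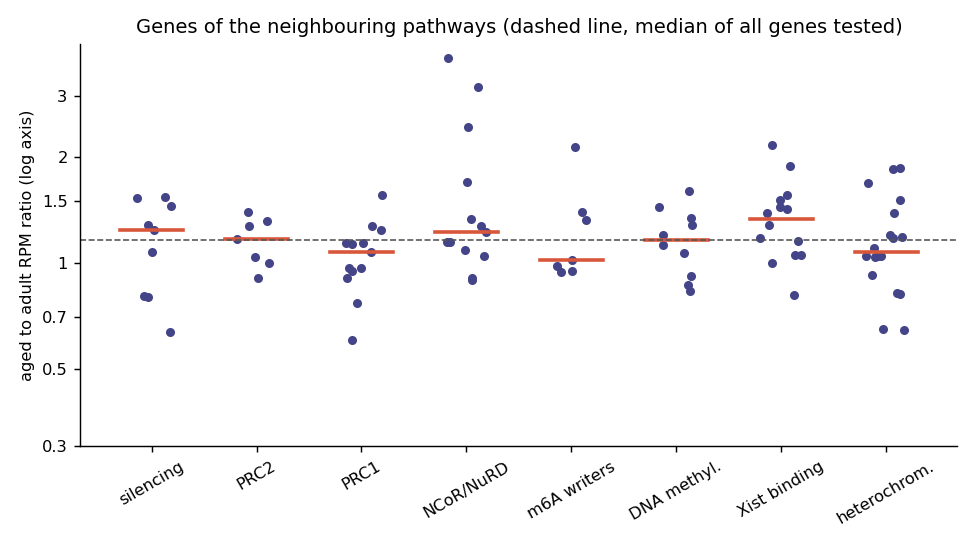
Aged to adult RPM ratio (log axis) of each tested gene in the 10-factor list and in 7 lists of partner genes, with 1 point per gene, a red bar at each list's median and a dashed line at the median of all tested genes, 1.17. List medians lay between 1.02 and 1.34, and single genes spread more widely than the medians.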

How the data were processed

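The authors processed single-nucleus 3′ RNA libraries with Cell Ranger 7.1.0 (version from the submitters' processing notes), split alignments by nucleus, kept nuclei with an active BL6 X, and pooled their reads. Allelome.PRO2 then assigned reads over BL6/CAST variants to alleles on GRCm38/mm10 with RefSeq genes. Per the file headers, the deposited tables give BL6, CAST and total read counts per gene, the allelic ratio as a fraction rounded to 2 decimals, and an allelic score, which was not used. The study's methods name CellBender for background RNA and DoubletFinder for doublets in the nucleus count matrices. Whether either applied to the pooled alignments behind these tables, strand use and duplicate removal are not given in the sources used here.

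Allelic ratios were recomputed from the counts. Ratios used exact conditional binomial intervals, shares Clopper-Pearson intervals, and changes in allelic ratio (adult minus aged) Newcombe intervals, in Python 3.11.15 with scipy 1.17.1. The intervals were tried on simulated reads drawn independently from the Poisson and binomial models that they assume. That trial could not show how copies of 1 molecule would affect them. Exons and strands came from GENCODE on GRCm38, upstream sequences from RefSeq on GRCm38.p6. A minimum of 20 reads in each library applied, with a fold of 1.5 and an allelic change of 0.1. Named genes were the 10 factors, overlapping loci, Xist, the stated paralogs and cofactors, and in each partner list the genes with the highest and lowest ratio among those with 100 or more reads in each library. Ttn, Mettl3, Pcgf3, Phc1, Lrif1 and the single lymphocyte and cell cycle markers were named after their values were seen. The factors and lists were chosen with earlier results of these data known. Alternatives covered scaling, read minimums, thresholds, single alleles, overlapping loci and, added after seeing the data, locus length.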

Additional observations from a re-analysis of the deposited data

How the results depend on the processing

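The 3 factors past 1.5-fold were 1 with median-of-ratios size factors (0 higher, 1 lower), 5 with BL6 reads alone (4 higher, 1 lower), 1 without the 4 factors that overlap another locus, 2 after division by the median of the length class (Dnmt3a higher, Ezh2 lower), 6 at the looser fold tried and 0 at a fold of 2. Ezh2 was the lower call in both cases of 1. With BL6 reads alone Ezh2 was not called (0.812), and the lower call was Rbm15 (0.645). CAST reads alone also gave 3 calls, but these were Spen higher (1.59) and Ezh2 (0.437) and Dnmt1 (0.554) lower. Intervals that leave out 1 numbered 5 of 5 without the overlapping factors, 7 of 9 with size factors (3 higher, 4 lower) or by length class, 8 without the most abundant loci, where Smchd1 was 1.06 (0.992 to 1.14), and 6 with BL6 or CAST reads alone. The median ratio of the 9 factors was 0.983 with CAST reads alone. Direction turned for Smchd1 with size factors (0.924) and, with CAST reads alone, for Dnmt1 (0.554) and Hdac3 (0.949). Of the 2 factors off the autosomal median at both ages, 1 was left without overlapping loci, as Hnrnpu overlaps Cox20. For each of these changes the cause was not tested. No paired analysis was possible because each age has 1 library and the labels carry no replicate numbers, and for the same reason no replicate could be left out.

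With autosomal scaling or without the most abundant loci, the ratios of all 9 factors stayed within the counting intervals reported above. Dnmt1, Hdac3 and the aged Ezh2 values rest on fewer than 300 reads in the aged library.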
